A study of Mus musculus with 6 samples.

Results

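RNA of 31 genes that B lymphocytes express was followed through 6 pooled isolates of mouse mammary epithelial cells. The members were the rows of the deposited count matrix whose symbol was on a list of 31 B cell genes, and all 31 were found among its 61880 rows, each also as the sum of all rows of its assembled locus (53912 loci in all). The isolates were 3 pooled samples (pools) from female *fat-1* mice, which carry a *Caenorhabditis elegans* transgene for an *n*-3 desaturase on the FVB/NJ background and make *n*-3 fatty acids throughout the body, and 3 from female wild-type (WT) FVB/NJ mice. All mice were 6 to 8 weeks old and were kept, from their parents' feeding onwards, on a modified AIN93G diet with 10% (*w*/*w*) safflower oil, an *n*-6 rich oil that supplied 22% of energy. Each sample combined inguinal glands of 2 to 3 mice by one statement of the methods (another gives 6 to 8 mice for each analysis), so no value belongs to a single animal. The methods state that the lymph nodes were taken out before the 18 h digestion of the glands, and no sorting step is described. The counts of a sample summed to between 204539059 and 232148824, and the levels below are CPM (counts out of 1000000 of the TMM-normalized total).

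B cells recognise antigen through a membrane immunoglobulin that cannot signal by itself and is carried by the CD79A and CD79B chains. Engagement of the receptor activates Src-family and SYK kinases, which use the adaptor BLNK to bring BTK and phospholipase C gamma 2 together, while coreceptors such as CD22 and CD72 raise the threshold. The identity of the lineage is held by transcription factors, with EBF1 and PAX5 at the top, and survival in the periphery depends on receptors for the ligands BAFF and APRIL. In the mammary gland, B cells are part of the resident leukocytes, and the inguinal gland of the mouse encloses a lymph node that is rich in them.

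The promoters of B cell genes are known for a few short motifs, and 8 stretches are shown because they hold such a motif next to the start of a member gene. Each runs 5′ to 3′ on the strand of the gene, with capitals for the motif. The sequences are from RefSeq on build GRCm38.p6, where 24 of the 31 members matched a promoter window of 250 bases before to 50 after the start. This start can differ from that of the gene positions below, which are from GENCODE. The stretches of *Vpreb3*, *Blnk*, *Cd22* and *Fcmr* lie inside the span that GENCODE gives the gene. The octamer of the POU2F factors, ATGCAAAT on either strand, is held by these stretches of *Vpreb3* (chr10:75948200-75948299, plus strand) and *Blnk* (chr19:40994272-40994371, minus strand):
Vpreb3: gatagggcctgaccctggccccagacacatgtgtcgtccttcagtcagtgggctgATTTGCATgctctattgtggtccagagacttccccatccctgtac
Blnk: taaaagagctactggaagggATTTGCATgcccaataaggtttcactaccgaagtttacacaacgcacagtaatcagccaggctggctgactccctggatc

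An EBF1-type palindrome, CCCNNGGG, is marked in *Cd22* (chr7:30879029-30879128, minus strand), *Bank1* (chr3:136326067-136326166, minus strand) and *Spib* (chr7:44532072-44532171, minus strand), where 2 matches overlap in the letters of *Spib*:
Cd22: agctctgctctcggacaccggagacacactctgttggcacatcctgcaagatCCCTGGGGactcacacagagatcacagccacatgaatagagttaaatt
Bank1: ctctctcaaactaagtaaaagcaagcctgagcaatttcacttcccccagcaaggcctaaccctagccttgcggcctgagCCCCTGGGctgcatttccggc
Spib: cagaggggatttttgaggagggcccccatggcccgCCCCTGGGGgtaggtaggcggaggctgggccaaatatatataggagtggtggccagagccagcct

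The purine-rich core of SPI1 and SPIB sites, GAGGAA, lies on the other strand in *Cd72* (chr4:43454627-43454726, minus strand), *Fcrla* (chr1:170927584-170927683, minus strand) and *Fcmr* (chr1:130865677-130865776, plus strand):
Cd72: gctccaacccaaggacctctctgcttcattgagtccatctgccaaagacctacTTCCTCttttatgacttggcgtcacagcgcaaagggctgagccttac
Fcrla: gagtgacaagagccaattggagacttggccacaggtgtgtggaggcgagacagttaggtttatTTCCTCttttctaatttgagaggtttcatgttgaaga
Fcmr: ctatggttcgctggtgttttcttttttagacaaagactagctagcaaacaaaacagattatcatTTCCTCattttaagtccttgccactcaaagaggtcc

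The octamer was found in 2 of the 28 windows of members (7.14%) and in 1.74% of all 32851 windows. The EBF1 letters were in 3 of 28 (10.7%) against 13.7% of all windows, and GAGGAA in 12 of 28 (42.9%) against 28.3%. These are matches of letters and not measured sites, and no test was made of the shares.

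B cell RNA was counted in all 6 isolates, and its amount differed between pools of the same genotype. For 30 of the 31 members, *Tnfrsf17* being the exception, the ratio of the highest to the lowest pool within each genotype exceeded the ratio of the genotype means. The share of all tested loci for which this holds was not counted, and a range over single pools tends to exceed a ratio of means. This count therefore neither sets the members apart nor weighs the pools against the genotypes. Among the members, 28 of 31 were lowest in sample 1 of the *fat-1* pools and also highest in sample 3 of the WT pools, an arrangement that 21.7% of all 24061 tested loci had (it was chosen after the values were seen). The exceptions were *Ly6d*, *Plcg2* and *Tnfrsf17*. In both genotypes, 19 of the 31 members had a highest sample at or above 2 times the lowest, which 17.0% of all tested loci had. The median ratio of highest to lowest sample was 2.47 in the *fat-1* and 2.26 in the WT pools for the members, against 1.49 and 1.42 for all loci. All members are read from the same 6 libraries, so that they are not independent of each other.

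**Figure D1:**
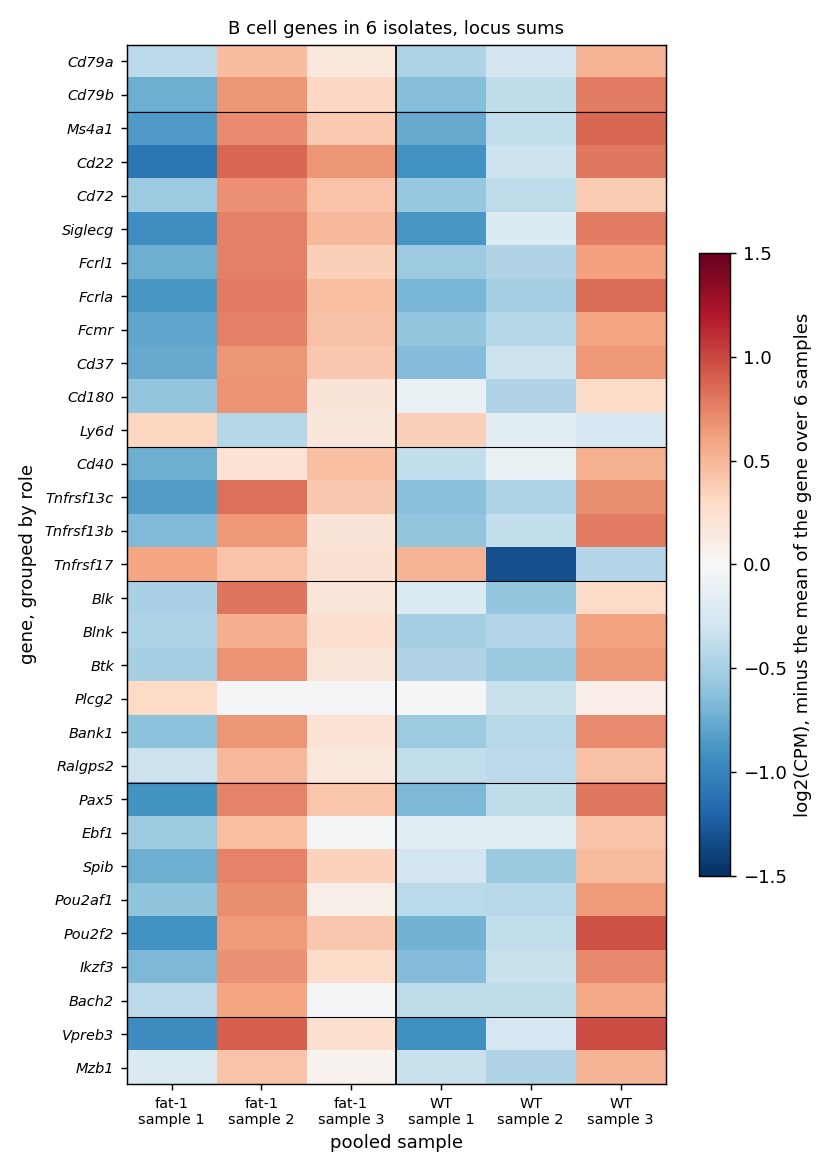
Relative level of the 31 members (rows, grouped by role, lines between the groups) in 3 *fat-1* and 3 WT pooled samples (columns), as log2(CPM) of the locus sum minus the mean of that gene over the 6 samples. In 26 rows, *fat-1* sample 1 and WT pools 1 and 2 are below the mean (blue) and *fat-1* pools 2 and 3 and WT sample 3 above it (red), and the other rows are *Ly6d*, *Tnfrsf17*, *Plcg2*, and *Ebf1* and *Bach2*, which lie just below the mean in *fat-1* sample 3.

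The 24 members whose locus held no other named gene added up to 923, 1718 and 1464 CPM in *fat-1* pools 1 to 3 and to 974, 957 and 1702 CPM in WT pools 1 to 3. *Fat-1* sample 2 and WT sample 3 were thus the richest pools, each the highest of all 6 samples for 14 members. *Fat-1* sample 1 was the lowest of all for 21 members. The sums include *Ly6d*, with 239, 142 and 215 CPM in the *fat-1* and 244, 170 and 160 CPM in the WT pools. This gene ran against most members and is also made by epithelia. The sum was not taken without it, so the small difference between WT pools 1 and 2 may rest on *Ly6d*. In bulk RNA of such cell isolates, fewer B cells and less B cell RNA per cell cannot be told apart.

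Between the genotypes, no member passed the test. In the quasi-likelihood test of edgeR, 0 members reached an adjusted *p*-value (Benjamini–Hochberg) of 0.05 or less among the locus sums, where 0% of all 24061 loci did, and 0 did among the matrix rows, where 0% of all 30683 rows did. At the unadjusted threshold there were 0 members among the loci (1.14% of all loci passed) and 0 among the rows (2.21% of all rows passed). With 1 pool left out, 1 locus reached it (*Tnfrsf17* without WT sample 1, where 316 of all 24633 loci did). The rows that did were *Cd79a* and *Tnfrsf17* without WT sample 1, where 752 of all 31373 rows did. Without WT sample 3 they were *Cd79b* and *Blk* (986 of all 31477 rows), and without *fat-1* sample 1 *Cd22* (955 of all 31393 rows). No member was higher, or lower, in every *fat-1* sample than in every WT sample, which 4.15% of all tested loci were. The fold changes were 29 positive and 2 negative, with a median of 0.18 on the log2 scale (all loci 0.00, 50.6% positive) and a range from −0.04 to 0.66. The 95% intervals of single members reached from −1.38 to 1.80, with 23 that reached a 2-fold higher and 9 a 2-fold lower level in the *fat-1* pools. On simulated locus sums with the spread of the real ones, the same test recovered 19% of 2-fold and 77% of 4-fold changes, with 11 unchanged loci called. The changed loci were drawn at random from loci above a low count, and the members spread more between pools than all loci did. Recovery for genes with the spread of the members was not measured. On simulated rows the same test recovered 0% of either size, so that the absence of calls among the rows says nothing about changes of these sizes.

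The direction rested on single pools. Without *fat-1* sample 2, only 6 of the 31 fold changes were positive and the median was −0.08, and without WT sample 1 they were 15 and −0.02. Without WT sample 2, 18 were positive with a median of 0.01. Leaving out WT sample 3 gave 30 positive values and a median of 0.67, and leaving out *fat-1* sample 1 gave 30 and 0.47. Without *fat-1* sample 3, 27 were positive and the median was 0.15. In each of these fits, 0 members passed the adjusted threshold.

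**Figure D2:**
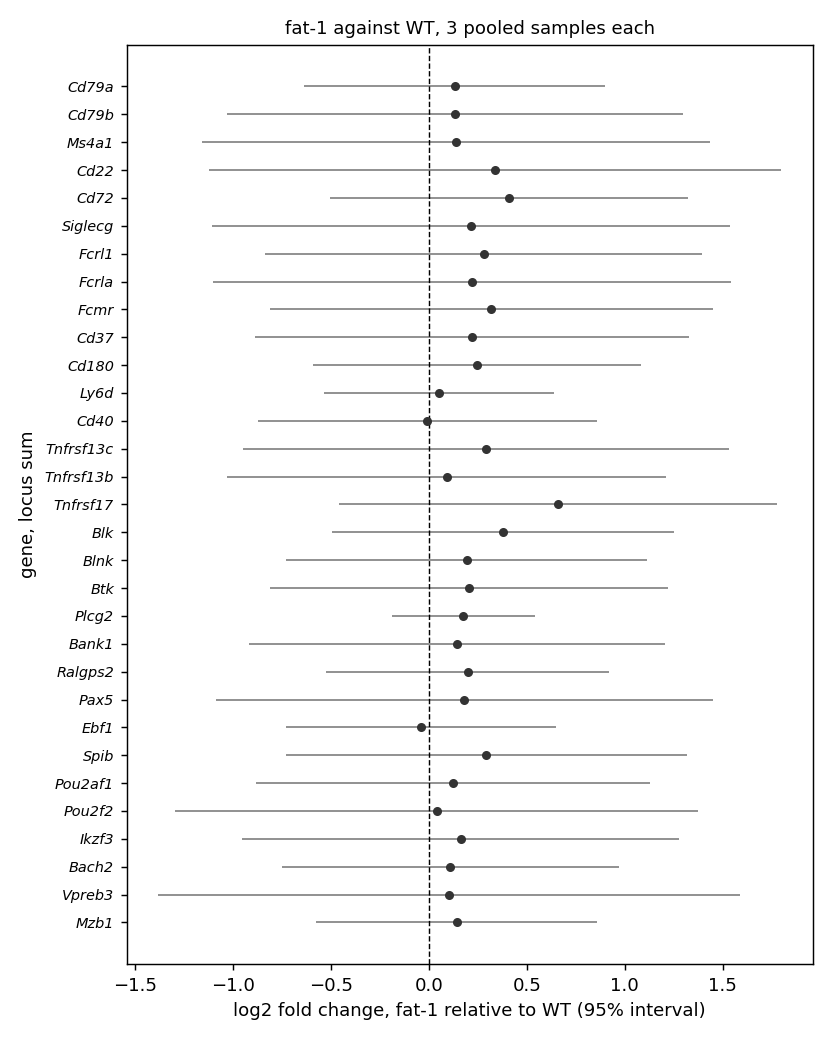
Log2 fold change of each member, *fat-1* relative to WT, from edgeR's quasi-likelihood test on locus sums with 3 pooled samples a genotype (points), with 95% intervals (lines) and a dashed line at no difference. All 31 intervals cross the line, and *Plcg2* has the narrowest.

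The signalling chains of the receptor come first. *Cd79a* (chr7:24897381-24902197, plus strand, GRCm38), which encodes CD79A, had 278, 507 and 408 CPM in the *fat-1* pools and 266, 302 and 521 CPM in the WT pools over its locus, which also holds *Arhgef1*. Of the counts of this locus, 66.2% to 88.5% were in a row without a symbol. How many of those reads came from *Arhgef1* was not measured. The groups overlapped, with WT sample 3 at the top and WT sample 1 at the bottom. The log2 fold change was 0.13 (standard error 0.32, 95% interval −0.64 to 0.90, adjusted *p* = 1.00 in the quasi-likelihood test of edgeR), and 0.19 with the *Arhgef1* row left out. *Cd79b* (chr11:106311341-106314762, minus strand), the partner chain, had 61.7, 163 and 128 CPM in the *fat-1* pools and 66.1, 79.0 and 176 CPM in the WT pools. The order of the pools was that of *Cd79a* apart from the lowest place, and the log2 fold change was 0.13 (standard error 0.48, unadjusted *p* = 0.790).

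How the assembly divided the reads of these loci differed far more than the loci did. StringTie names assembled loci by number, and a locus can have a row with the gene symbol beside a row without one. The row with the symbol *Cd79a* held 129, 349 and 246 counts in the *fat-1* pools and 90, 3948 and 582 in the WT pools, whereas the row without a symbol held 45318, 96173 and 74128 and then 46833, 45215 and 94192. The symbol row thus carried between 0.158% and 5.78% of the locus. Its own log2 fold change was −2.60 (standard error 1.26, unadjusted *p* = 0.0851 in the quasi-likelihood test of edgeR), with most of the difference in WT sample 2. It was also the one member at an unadjusted *p*-value at or under 0.05 in DESeq2 (1 of 31 rows, against 3.02% of all rows), which gave 0 members in the locus sums. For *Cd79b*, the symbol row held 10391, 2537 and 22289 counts in the *fat-1* pools and 711, 1039 and 12549 in the WT pools, beside 2620, 32469 and 4334 and then 13425, 16864 and 23718 in the row without a symbol. Its share of the locus ran from 5.03% to 83.7%, and its own log2 fold change was 1.29 (standard error 1.32). The chains that form 1 dimer thus pointed in opposite directions by symbol row and had the same fold change by locus. Of the 31 members, 10 had a locus of a single row and 21 had more rows, 7 of them with another named gene.

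**Figure D3:**
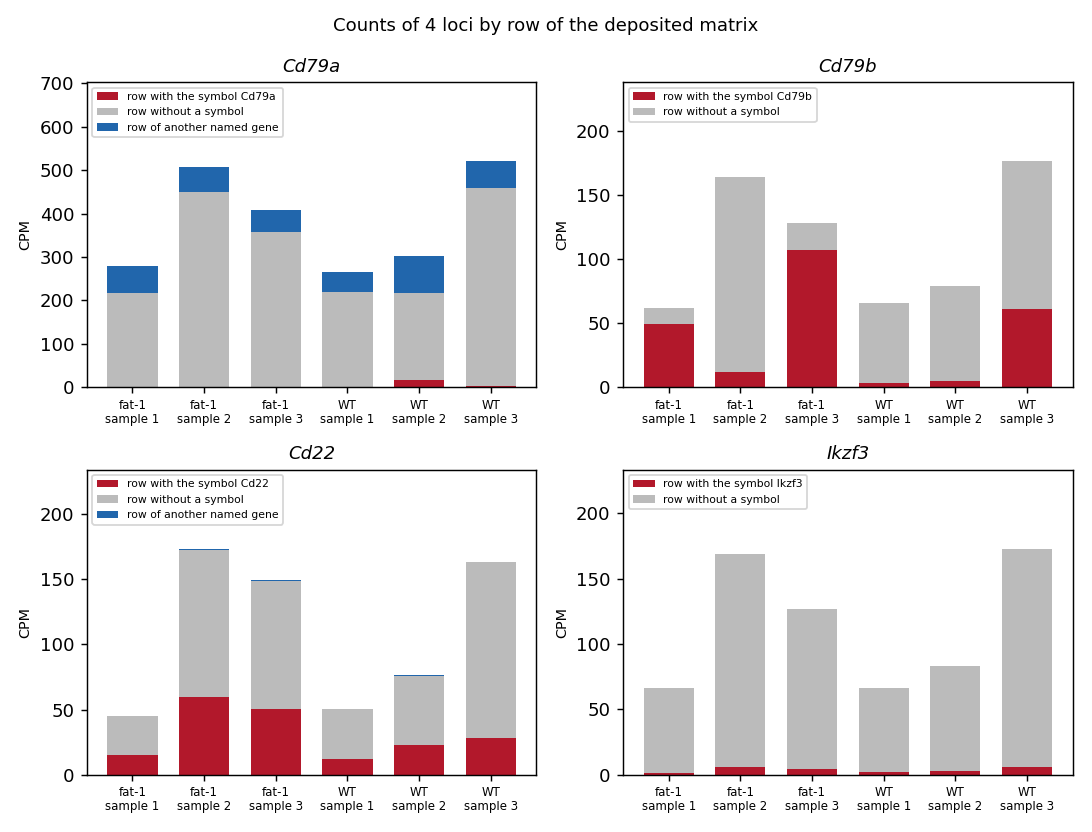
Stacked CPM of 4 loci in the 6 pooled samples, by matrix row (red for the row with the gene symbol, grey for the row without a symbol, blue for rows of other named genes). The red part of *Cd79b* changes from 5.03% to 83.7% of the bar, while that of *Ikzf3* stays between 1.82% and 3.57%.

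Among the surface proteins, the B cell antigen CD20 is encoded by *Ms4a1* (chr19:11249675-11266241, minus strand). It had 33.8, 99.4 and 79.9 CPM in the *fat-1* pools and 36.1, 46.9 and 110 CPM in the WT pools. Nearly all of its counts, from 97.8% to 100%, were in the symbol row. The spread within each genotype was close to 3-fold, and the log2 fold change was 0.14 (standard error 0.54, unadjusted *p* = 0.802). *Cd22* (chr7:30865402-30880342, minus strand), an inhibitory coreceptor that binds sialic acid, had 44.8, 173 and 150 CPM in the *fat-1* pools and 50.5, 76.1 and 164 CPM in the WT pools. It had the widest spread among the *fat-1* pools of the members, at 3.86 times from lowest to highest. Its log2 fold change was 0.34 (standard error 0.60, unadjusted *p* = 0.594) by locus and 1.00 by symbol row (unadjusted *p* = 0.130 in the quasi-likelihood test of edgeR), with between 17.2% and 34.5% of the locus in the symbol row.

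The other inhibitory receptors had the same high pools. *Cd72*, whose product also dampens receptor signalling, had 24.0, 56.1 and 47.1 CPM in the *fat-1* pools and 23.5, 26.7 and 45.6 CPM in the WT pools. *Siglecg*, a sialic acid-binding lectin related to CD22, had 13.5, 43.5 and 36.2 CPM and then 14.1, 22.3 and 43.8 CPM. For both, *fat-1* pools 2 and 3 and WT sample 3 lay well above the other three pools. The Fc receptor-like genes did likewise. *Fcrl1*, for a surface activator of B cells, had 18.9, 53.2 and 40.3 CPM in the *fat-1* pools and 21.6, 23.1 and 48.0 CPM in the WT pools. *Fcrla*, for an intracellular relative that binds immunoglobulins, had 14.1, 44.2 and 35.2 CPM and then 16.0, 18.3 and 46.0 CPM. The receptor for the Fc part of IgM, *Fcmr*, had 44.7, 130 and 104 CPM in the *fat-1* pools and 51.3, 57.3 and 116 CPM in the WT pools.

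*Cd37*, for a tetraspanin of mature B cells, had 53.8, 143 and 120 CPM in the *fat-1* pools and 57.8, 72.6 and 142 CPM in the WT pools. *Cd180*, for a Toll-like receptor relative that B cells share with myeloid cells, was rarer, with 4.25, 10.2 and 7.30 CPM and then 5.95, 4.65 and 7.72 CPM. *Ly6d* went the other way. Its product, a small membrane-anchored protein, marks B cell-committed progenitors in the bone marrow and is also made by epithelia. It had 239, 142 and 215 CPM in the *fat-1* pools and 244, 170 and 160 CPM in the WT pools, lowest in *fat-1* sample 2 and WT sample 3, where most members were highest. The luminal keratin *Krt8* was also highest in sample 1 and lowest in these pools, with 899, 210 and 344 CPM and then 645, 397 and 221 CPM. Over the 10 surface genes the median log2 fold change was 0.23, all 10 were positive, and the smallest unadjusted *p*-value of the quasi-likelihood test in edgeR was 0.319.

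The receptors of the tumor necrosis factor family carry survival and costimulatory signals. *Tnfrsf13c*, for the BAFF receptor of mature B cells, had 12.4, 39.6 and 29.6 CPM in the *fat-1* pools and 14.5, 16.1 and 36.0 CPM in the WT pools. *Tnfrsf13b*, for TACI, had 8.30, 20.7 and 15.1 CPM and then 8.77, 10.2 and 22.5 CPM. Both followed the pools of the other members. *Cd40*, the receptor of T cell help, which dendritic and other cells also express, had 17.7, 34.2 and 40.1 CPM and then 22.8, 27.3 and 42.5 CPM. *Tnfrsf17*, for the plasma cell receptor BCMA, was nearly absent, with 21, 19 and 16 counts in the *fat-1* pools and 20, 6 and 10 in the WT pools. Its log2 fold change was the largest of the members, 0.66 (standard error 0.46), and it had their smallest unadjusted *p*-value, 0.202 by the quasi-likelihood test of edgeR, on these few counts.

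The proteins that relay the receptor signal were measured for 6 members. *Blk*, for a Src-family kinase of B cells, had 35.4, 86.3 and 56.2 CPM in the *fat-1* pools and 43.1, 33.3 and 60.8 CPM in the WT pools. The adaptor gene *Blnk* had 29.2, 59.1 and 48.3 CPM and then 28.5, 29.8 and 61.2 CPM. *Btk*, for the kinase whose loss blocks B cell development in humans, had 22.1, 49.7 and 35.6 CPM and then 22.8, 21.2 and 49.2 CPM. The highest pool was *fat-1* sample 2 for *Blk* and *Btk* and WT sample 3 for *Blnk*. *Plcg2*, for phospholipase C gamma 2, varied least, with 96.2, 77.5 and 77.3 CPM in the *fat-1* pools and 76.3, 62.0 and 83.9 CPM in the WT pools. This gene is also used by myeloid cells and platelets. *Bank1*, for a scaffold that binds Src-family kinases, had 43.1, 104 and 75.8 CPM and then 45.1, 49.2 and 108 CPM. *Ralgps2*, for an exchange factor of Ral GTPases, had 33.1, 58.4 and 46.4 CPM and then 32.2, 31.8 and 56.2 CPM. All 6 fold changes were positive, with a median of 0.20 on the log2 scale and a smallest unadjusted *p*-value of 0.284 by the quasi-likelihood test of edgeR.

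Of the transcription factors, *Pax5* (chr4:44524757-44710487, minus strand), which commits cells to the B lineage, had a locus of a single row, so that the division of reads between rows does not touch it. It had 46.4, 144 and 115 CPM in the *fat-1* pools and 54.1, 66.5 and 149 CPM in the WT pools. The groups overlapped over most of their range, and the log2 fold change was 0.18 (standard error 0.53, unadjusted *p* = 0.743). *Ebf1* (chr11:44617317-45008091, plus strand), which acts before and with PAX5 and is also known from fat and stromal cells, had 43.4, 86.1 and 61.5 CPM and then 55.9, 56.3 and 84.3 CPM. Its spread was narrower and its log2 fold change was −0.04 (standard error 0.28, unadjusted *p* = 0.889). *Pou2af1* (chr9:51213708-51240080, plus strand), for the octamer coactivator of B cells, had 74.2, 183 and 119 CPM and then 85.3, 84.3 and 176 CPM, which gave 0.12 as the log2 fold change (standard error 0.42, unadjusted *p* = 0.777).

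*Pou2f2*, for the octamer factor that this coactivator assists, had 17.3, 50.7 and 42.9 CPM in the *fat-1* pools and 19.9, 25.1 and 62.9 CPM in the WT pools. *Spib*, for the Ets factor shared with plasmacytoid dendritic cells, had 23.3, 64.9 and 49.1 CPM and then 31.8, 26.3 and 53.9 CPM. Both had their lowest value in *fat-1* sample 1. *Ikzf3*, for the zinc finger factor Aiolos, had 65.8, 169 and 127 CPM and then 66.8, 83.3 and 173 CPM, of which between 1.82% and 3.57% were in the row with its symbol. *Bach2*, for a repressor that holds back plasma cell differentiation, had 44.4, 88.1 and 57.6 CPM and then 44.7, 44.7 and 86.9 CPM. Of the 7 factors, 6 had positive fold changes, with a median of 0.12 on the log2 scale.

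The remaining members act in the secretory pathway. *Mzb1*, for an endoplasmic reticulum protein that helps immunoglobulin assembly in marginal zone B and plasma cells, had 41.7, 65.0 and 50.1 CPM in the *fat-1* pools and 38.4, 35.3 and 68.5 CPM in the WT pools. Its locus also holds *Prob1*, *Spata24* and *Gm50318*, and its symbol row took between 8.66% and 29.6% of the counts. The log2 fold change was 0.14 (standard error 0.30, unadjusted *p* = 0.649). *Vpreb3*, the other member of this group, was rare, with 0.759, 2.72 and 1.72 CPM and then 0.767, 1.22 and 2.87 CPM. It spread by over 3-fold within each genotype, and was highest in the same pools as most members.

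Per kilobase of exon, which allows levels to be set beside each other, the 24 loci without another named gene covered a wide range. *Ly6d* was highest, at 267 ± 67.9 CPM per kb (SD, *n* = 3) in the *fat-1* and 257 ± 61.6 in the WT pools. *Fcmr* followed at 53.7 ± 25.3 and 43.0 ± 20.5, then *Cd37* at 30.0 ± 13.2 and 25.8 ± 12.7 CPM per kb. *Blk*, *Plcg2*, *Fcrla* and *Spib* lay next, at means over the 6 samples of 19.5, 18.3, 16.6 and 14.5 CPM per kb, and differed from their neighbours by less than the spread between pools. At the low end, *Vpreb3*, *Cd180* and *Tnfrsf17* had means of 1.95, 1.48 and 0.0887 CPM per kb. The exon length is that of the annotated gene, and isoforms were not told apart.

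**Figure D4:**
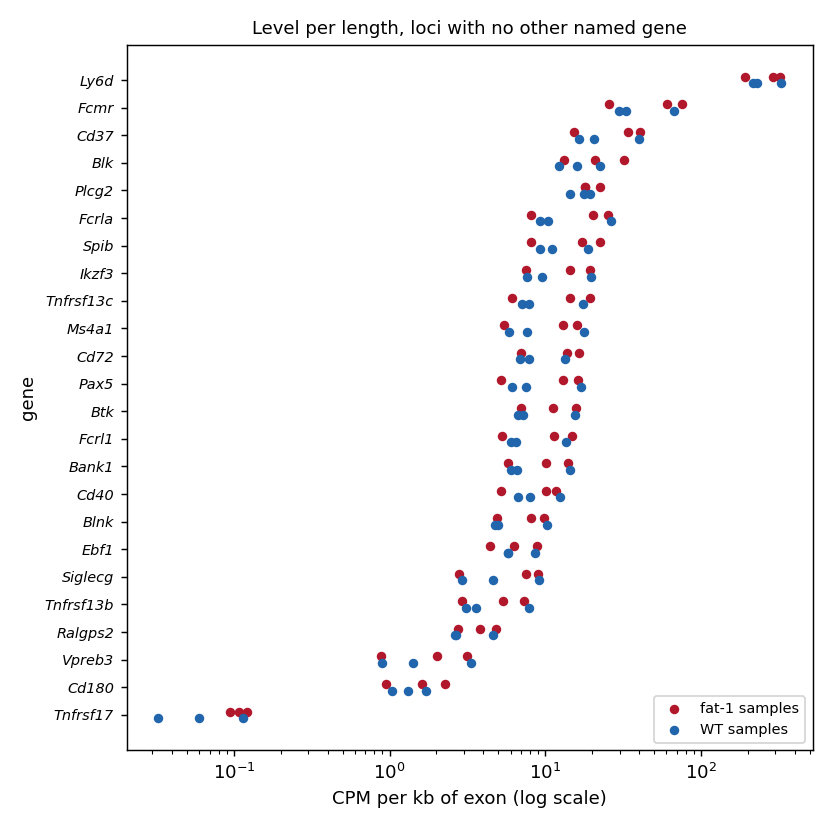
CPM per kb of exon (log axis) for the 24 members whose locus held no other named gene, with 1 point per pooled sample, red for *fat-1* and blue for WT, sorted by the mean. *Ly6d* (mean 262 CPM per kb) and *Tnfrsf17* (0.0887) stand at the ends, and the red and blue points of each gene overlap.

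Genes of the same pathway that were no members were counted from lists, again on locus sums. The B cell receptor and coreceptor list had 22 genes, of which 0 passed at the adjusted or the unadjusted threshold, with a median log2 fold change of 0.14 and 20 positive values. *Cr2*, for the complement receptor CD21, had 9.19, 15.9 and 11.1 CPM in the *fat-1* pools and 11.99, 8.67 and 15.2 CPM in the WT pools. It was highest in *fat-1* sample 2 and WT sample 3, as most members were. The 11 other B cell transcription factors had a median of 0.07 with 8 positive values and 0 passing. *Spi1*, for the factor PU.1, had 12.9, 29.3 and 22.5 CPM and then 14.6, 13.7 and 31.7 CPM, and *Tcf3*, for E2A, was nearly level at 91.6 to 113 CPM.

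Other lists, of B cell stages, are given only as levels. They also hold genes that other cells of the isolates can express, so their medians do not give the stage of the B cells. Of 9 immature B cell genes, 5 stayed under 1 CPM in every sample. *Vpreb2* had a count of 0 in all 6, the recombinase gene *Rag2* had between 0 and 18 counts, and *Rag1* was at 2.64 to 3.94 CPM in a locus shared with *B230118H07Rik*. The 7 of these genes that could be tested had a median log2 fold change of −0.32 with 0 positive, and *Cd93*, a gene of immature B cells that endothelium also expresses, was lower at an unadjusted *p* = 0.0292 (edgeR's quasi-likelihood test, log2 fold change −0.35, adjusted *p* = 1.00). Of 9 germinal centre genes, 4 stayed under 1 CPM, and the median was −0.02. *Bcl6*, which epithelia and other cells also use, had 82.8 to 130 CPM. Of 9 plasma cell genes, 1 was positive and the median was −0.15. *Prdm1*, for the plasma cell regulator BLIMP1, had 13.3 to 36.8 CPM, and *Xbp1*, for the secretory regulator also used by luminal cells, had 113 to 186 CPM. None of the 3 lists held a gene past the adjusted threshold.

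Homing genes link B cells to their niche. Of the 13 genes of homing and survival, 10 were positive with a median of 0.18 and 0 passed the adjusted threshold. *Cxcr5*, for the receptor that guides B cells to follicles, had 29.6, 91.9 and 73.9 CPM in the *fat-1* pools and 34.0, 30.6 and 91.8 CPM in the WT pools. The gene of its ligand, *Cxcl13*, had 1.87, 7.30 and 9.88 CPM and then 1.13, 3.40 and 7.70 CPM. Both were highest in *fat-1* samples 2 and 3 and WT sample 3. *Ccl19*, for a chemokine of the T cell zone of lymph nodes, had 0.232, 1.40 and 1.01 CPM and then 0.112, 0.163 and 0.316 CPM. It was the 1 gene of the list at the unadjusted threshold, where the log2 fold change was 2.16 (standard error 0.71, unadjusted *p* = 0.0214, adjusted *p* = 1.00 in the quasi-likelihood test of edgeR), and the groups overlapped, since *fat-1* sample 1 lay below WT sample 3.

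Markers of other cells were measured in the same pools. As the median over each list's genes of log2(CPM) minus the gene's mean, for loci without another named gene, the members had −0.67, 0.68 and 0.26 in the *fat-1* pools and −0.54, −0.39 and 0.61 in the WT pools. The T and NK cell markers (12 such loci of 21 genes) had −0.33, 0.61 and −0.04 and then −0.66, −0.28 and 0.72. They shared the high and low pools of the B cell genes apart from *fat-1* sample 3. The 9 markers of lymph node stroma and high endothelium had −0.63, 0.69 and 0.67 and then −0.57, −0.43 and 0.47. Of these 9 genes, 5 (*Cr2*, *Fcer2a*, *Ccl19*, *Ccl21a* and *Cxcl13*) are also in the B cell receptor or homing lists. *Glycam1*, a mucin of high endothelial venules that mammary epithelium also makes, had 40.5, 120 and 116 CPM and then 25.0, 23.4 and 101 CPM, and *Madcam1*, for a mucosal addressin, had 1.75, 3.95 and 6.21 CPM and then 2.74, 5.49 and 5.39 CPM. The pools high in B cell RNA were also those high in *Glycam1*. *Madcam1* was instead highest in sample 3 of the *fat-1* and sample 2 of the WT pools, so not all genes of the list had this order.

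Epithelial markers ran the other way. The luminal markers (10 loci of 11 genes) had 0.87, −0.90 and −0.05 in the *fat-1* pools and 0.76, 0.04 and −0.85 in the WT pools, and their summed level ran from 1139 to 4505 CPM. The basal markers (8 loci of 10 genes) had 0.75, −0.94 and 0.22 and then 0.94, −0.11 and −1.11, with *Krt5* at 180, 33.8 and 67.6 CPM and then 111, 58.7 and 32.2 CPM. *Krt18* ran from 193 to 908 CPM and *Krt14* (in a locus with *Krt16*) from 22.1 to 119 CPM. The isolates highest in B cell RNA, *fat-1* sample 2 and WT sample 3, were thus the lowest in both epithelial lists. The fibroblast markers (5 loci of 7 genes) had another order, −1.18, −0.11 and 0.75 and then −0.06, 0.58 and 0.11. *Col1a1* ran from 136 to 954 CPM and *Col1a2* from 214 to 1277 CPM, both lowest in *fat-1* sample 1. The myeloid markers (12 loci of 15 genes) had −0.43, 0.49 and −0.03 and then −0.31, −0.07 and 0.37. These medians were lowest and highest in the same pools as the members within each genotype. By summed level, which ran from 106 to 137 CPM, the highest WT pool was instead sample 2, and not all genes of the list had the order of the medians. The endothelial markers (6 loci of 7 genes) had −0.41, −0.09 and 0.02 and then −0.02, 0.25 and 0.09, with summed levels from 197 to 271 CPM. *Csf1r* had 4.89, 6.83 and 7.12 CPM in the *fat-1* and 5.44, 7.46 and 7.76 CPM in the WT pools, highest in sample 3 of either genotype. *Cd68* could not be separated from *Eif4a1* in its locus, and *Pecam1* and *Cdh5* had 59.7 to 119 and 72.8 to 101 CPM. These 7 lists held 0 genes past the adjusted threshold, and their median log2 fold changes were 0.09 (T and NK), 0.52 (lymph node stroma), −0.14 (luminal), 0.08 (basal), −0.24 (fibroblast), 0.01 (myeloid) and −0.22 (endothelial). What part the mix of cells has in the B cell levels was not tested.

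**Figure D5:**
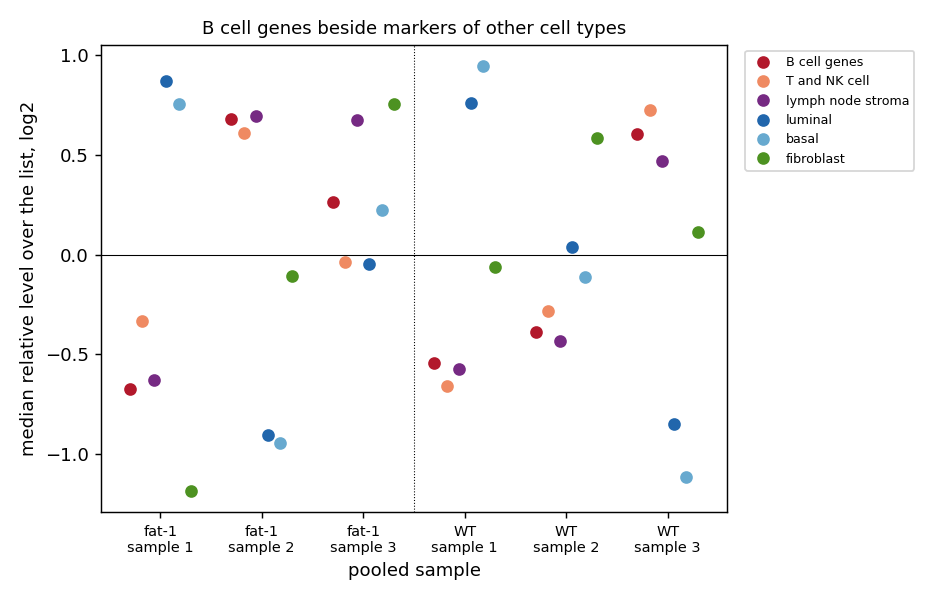
Median relative level (log2) of the B cell members and of 5 marker lists in each pooled sample, with 1 point per list and sample. The points for B cell genes are highest in *fat-1* sample 2 (0.68) and WT sample 3 (0.61), where those of luminal cells are lowest (−0.90 and −0.85).

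Ratios within a sample do not depend on the total. For *Cd79a* the locus sum was used, of which the *Arhgef1* row held from 11.2% to 28.0%. The row without a symbol, which may also hold *Arhgef1* reads, held 66.2% to 88.5%. What *Arhgef1* reads do to the ratios was not tested. *Cd79a* relative to the T cell gene *Cd3e* was 28.7, 25.0 and 39.0 in the *fat-1* pools and 30.5, 28.1 and 28.2 in the WT pools, a narrower range than that of either level. The genotypes differed by 0.07 on the log2 scale (exact permutation *p* = 0.8, two-sided, where 0.1 is the smallest that 3 against 3 samples can give). Relative to the pan-leukocyte gene *Ptprc* the difference was −0.04 (exact permutation *p* = 0.7), and relative to the macrophage gene *Csf1r* it was 0.29 (exact permutation *p* = 0.4). Relative to *Krt8* the ratio was 0.309, 2.41 and 1.19 and then 0.412, 0.760 and 2.36, a difference of 0.09 (exact permutation *p* = 0.9). The 4 adjusted values were all 0.9. With *Ms4a1*, whose locus holds no other gene, in place of *Cd79a*, the ratio to *Cd3e* was 3.49, 4.91 and 7.63 in the *fat-1* pools and 4.14, 4.37 and 5.97 in the WT pools (difference 0.09, exact permutation *p* = 0.8), highest in sample 3 of either genotype. The ratio of *Ms4a1* to *Krt8* went from 0.0376 to 0.473 among the *fat-1* pools and from 0.0560 to 0.501 among the WT pools.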

How the data were processed

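The authors isolated epithelial cells from pooled glands, extracted total RNA (RIN above 9) and sequenced 100 bp paired ends, mapped the reads with HISAT2 to GRCm38 and assembled and quantified transcripts with StringTie. They deposited 1 matrix of estimated counts, whole numbers without normalization. Versions, annotation, strand use and the conversion of coverage to counts are not given in the sources used here, so overlapping genes are uncertain. All 6 columns were matched to samples by name.

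Counts were tested as rows and as sums of all rows with the same locus number, by quasi-likelihood in edgeR 4.0.16 (newer fit, R 4.3.3), filterByExpr, TMM, genotype as the only term, Benjamini–Hochberg adjustment over all tested features and a threshold of 0.05. Standard errors were obtained as the absolute log2 fold change over the square root of F. Rows had a biological coefficient of variation of 0.451 and locus sums one of 0.302. *P*-values set the difference between the genotypes against the spread between pools. DESeq2 1.42.0 and edgeR's exact test were alternatives. Exact permutation tests used log2 ratios of CPM over the samples, or log2(CPM + 1) for single genes, and were two-sided. The test was tried on simulated data, 23408 locus sums with 100 changed at each of 2 sizes.

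The members and lists were chosen with earlier results of these data known. Levels are given for all members. Fold changes, standard errors and *p*-values are given for *Cd79a*, *Cd79b*, *Ms4a1*, *Cd22*, *Pax5*, *Ebf1*, *Pou2af1* and *Mzb1*, with *Tnfrsf17* added after its values were seen. Of other lists, the first 2 genes and those at an unadjusted *p*-value at or under 0.05 are named, except that some items are not reported here, and *Vpreb2* was added after its counts were seen. Gene positions and exon lengths are from GENCODE for GRCm38. Promoter letters were searched on both strands of 32851 windows. The planned search of protein motifs was not run, since protein sequences were not used here. Python 3.11.15, pandas 2.3.3 and matplotlib 3.10.9 were used for summaries and plots.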

Additional observations from a re-analysis of the deposited data

How the results depend on the processing

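Under all alternatives tried (RLE or no scaling factors, no filter, the older edgeR fit, edgeR's exact test, DESeq2, rows of other named genes left out, and each pool left out), 0 members passed the adjusted threshold among rows or loci, where 32 rows and 6 loci of all passed by the exact test and 93 rows and 8 loci by DESeq2. The exact test had *Cd79a* as 1 of 614 rows at the unadjusted threshold, and 0 members among the loci. With each pool left out, 0 to 2 member rows and 0 to 1 member loci reached that threshold, where 635 to 986 of all rows and 204 to 542 of all loci did. Over all loci, the pools numbered 1 deviated together (correlation 0.799), whereas those numbered 2 and 3 did not (−0.164 and 0.132). *Fat-1* sample 2 and WT sample 3, of unlike number, had 0.789. The replicate numbers were therefore not taken as pairs. With the replicate block, 0 members passed in rows or loci, the median log2 fold change was 0.18, and loci at the unadjusted threshold rose from 274 to 376 and rows from 678 to 784, with *Cd22* among the rows. Other scalings moved the median only between 0.177 and 0.181. Reading the symbol rows alone turned the log2 difference of *Cd79a* to *Cd3e* to −1.47, to *Csf1r* to −1.25 and to *Krt8* to −1.86 (and moved that to *Ptprc* from −0.04 to −1.44), and the log2 fold change of *Cd79a* to −2.60 and of *Mzb1* to −0.00010, where the symbol row of *Cd79a* held at most 5.78% of its locus. With each pool left out, the median ran from −0.082 to 0.67 and the summed level from −0.035 to 0.48. The log2 fold changes ran from −0.082 to 0.50 for *Cd79a*, −0.18 to 0.71 for *Cd79b*, −0.18 to 0.79 for *Ms4a1*, −0.16 to 0.77 for *Pax5*, −0.32 to 0.20 for *Ebf1*, −0.25 to 0.58 for *Pou2af1*, −0.047 to 0.52 for *Mzb1* and 0.01 to 0.97 for *Cd22*. The log2 differences of *Cd79a* ran from −0.11 to 0.21 to *Cd3e*, −0.14 to 0.078 to *Ptprc*, 0.12 to 0.49 to *Csf1r* and −0.58 to 0.90 to *Krt8*. With *Ms4a1* in place of *Cd79a*, chosen after the data were seen, the differences were 0.09, −0.02, 0.31 and 0.11. Over members without another named gene in the locus, likewise chosen, the median was 0.20 and the summed difference 0.18. *Tnfrsf17* had at most 21 counts in a pool, so its values carry the most counting error, and the effect of depth on the other members was not tested.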
